A study of Mus musculus domesticus with 18 samples.

Results

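The genes described here encode the constitutive subunits of the 26S proteasome, measured in the livers of wild house mice (Mus musculus domesticus). Members were every gene with a single-gene probe set whose symbol was Psma, Psmb, Psmc or Psmd followed by a number, without the immune-type subunits Psmb8, Psmb9 and Psmb10. This gave 36 of the 18193 genes named on the array, 16 counted with the core particle and 20 with the regulatory cap. The 20 cap genes include 3 chaperones that help assemble the cap, Psmd5, Psmd9 and Psmd10. The mice were 18 males, 9 caught at high altitude in La Paz, Bolivia (3600 m) and 9 at low altitude in Lima, Peru (100 m). Each city had 3 trapping locations, A, B and C, with 3 mice at each, and a mouse is named here by altitude, location letter and its own number. No treatment or age was given for either group, and each array carried total liver RNA of 1 mouse. The strain field reads C57BL/6J for all 18, whereas the title, source and design text describe wild-trapped animals, and the latter were followed. Altitude, city and mouse population coincide in this design and cannot be told apart.

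The 26S proteasome degrades proteins that carry ubiquitin chains. Its barrel-shaped core is built of outer rings of alpha subunits (Psma genes), which gate the entrance, and inner rings of beta subunits (Psmb genes), of which Psmb5, Psmb6 and Psmb7 carry the proteolytic sites. The cap recognises the ubiquitin chain, removes it and threads the substrate into the core. Its base holds a ring of ATPases (Psmc genes), scaffolds and a ubiquitin receptor, and its lid holds the deubiquitinating enzyme Psmd14. In the liver this machine contributes to the turnover of metabolic enzymes, and the transcription factor Nfe2l1 is known to drive its subunit genes together.

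All values are log2 levels from normalized array signals, so a difference of 1 is a doubling, and levels are compared only within 1 gene. As a list, hepatocyte markers were high on every array, with a list mean of 12.65 to 13.04 in the high mice and 12.61 to 13.00 in the low mice. Of the 7 markers, Ass1 was the exception, at a mean level of 6.86. Of the 36 members, 34 lay above the median level of all genes (6.307). Psma8 and Psmb11, the testis-type alpha and the thymus-type beta subunit, had mean levels of 5.63 and 4.98, below that median. The median SD over the 18 mice was 0.19 for the members, from 0.09 for Psma3 to 0.80 for Psma8. For all genes above the median level it was 0.23, and 25 of the 36 members varied less than that.

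The first comparison asked whether the subunit genes differed between altitudes. Of the 36 members, 0 passed the test (limma, adjusted p under 0.05 over all genes), and 0 had an unadjusted p under 0.05. Across all genes, 0.363% were called between altitudes and 11.5% had an unadjusted p under 0.05. The members' unadjusted count lay below that share, but many members move together across mice, so it does not rest on 36 separate observations. Adjusted p-values of the members ran from 0.535 to 0.999 with this tool. The size of the differences was small: the median absolute log2 difference was 0.07 for the members and 0.07 for all genes. It was 0.10 for the genes above the median level, where 34 of the 36 members lay. Only Psma8, at -0.43 ± 0.34 (SE), exceeded 0.25 in either direction. Of all genes 10.6% did, and of the 9096 genes above the median level 1460 did. For 32 of the 36 members the 95% interval of the difference lay within 0.5 of 0. The same held for 15663 of the 18193 genes, and for 7157 of the 9096 above the median level. All genes shared a consensus correlation within locations of 0.00586, so these intervals treat the 9 mice against 9 as nearly independent. They bound a missed difference only where that holds. Such an interval can be too narrow where location means lie apart, as for Psma8 at high altitude (4.99, 6.54 and 4.71).

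The direction was uneven even though no member passed. The log2 difference, high minus low, was below 0 for 30 of 36 members, beside 48.4% of all genes and 52.7% of the genes above the median level. Subunits share arrays and move together across mice, as described further on, so these 30 are not separate observations. By structure, 11 of 16 core members and 19 of 20 cap members were below 0. Median differences were -0.02 in the core and -0.08 in the cap, beside 0.00 over all genes and -0.01 over the genes above the median level.

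**Figure D1:**
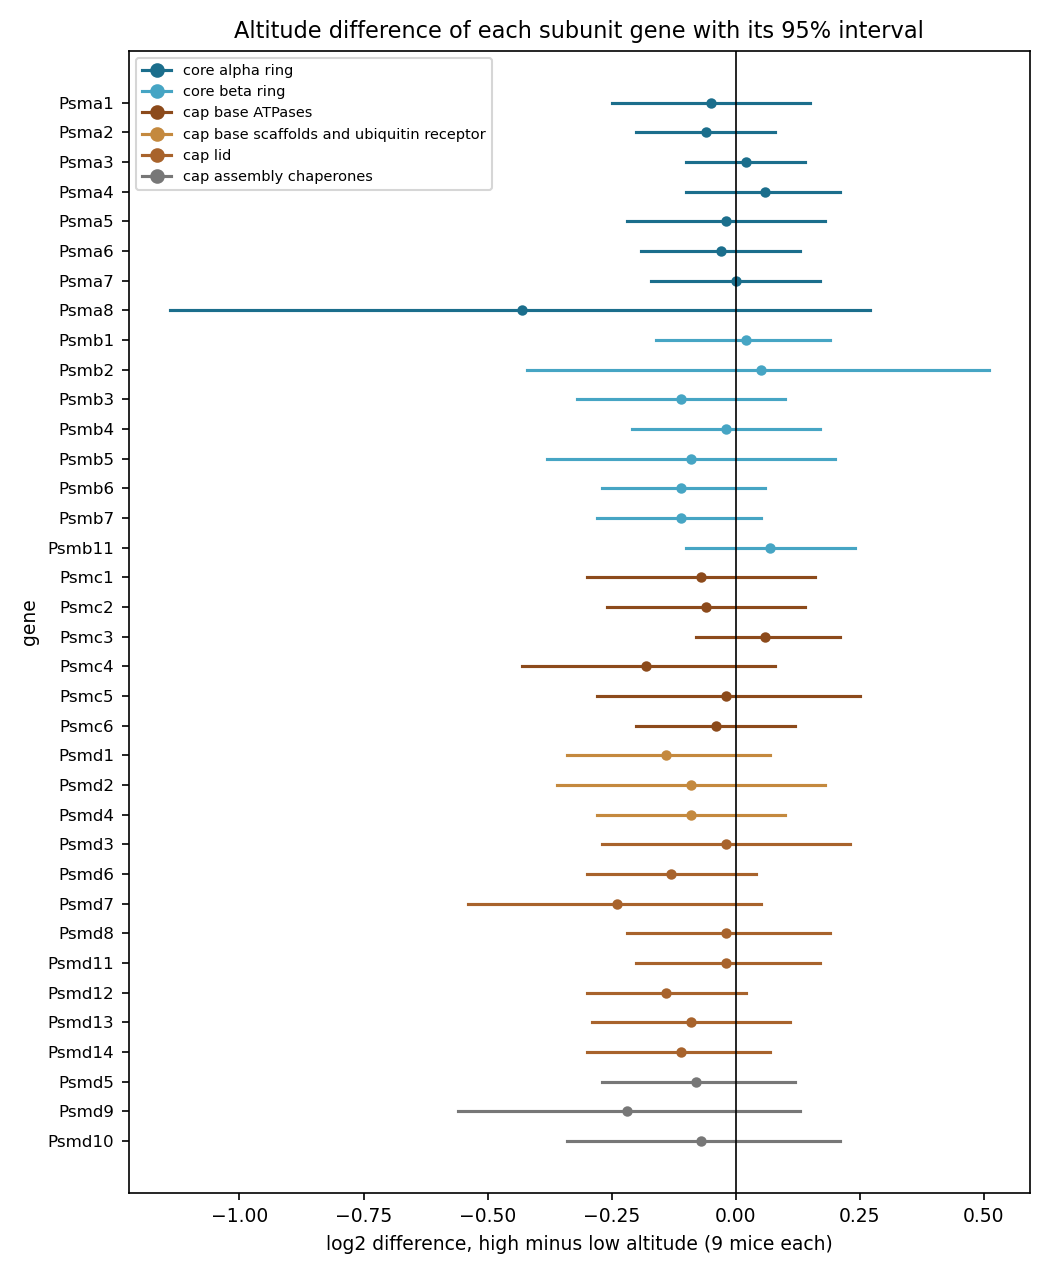
Log2 difference between altitudes (high minus low, horizontal axis) for each of the 36 subunit genes, by structural role; points are estimates and bars are 95% intervals from limma over 9 mice at each altitude. All 36 bars cross 0 and 30 points lie below it. Psma8 has the widest bar, from -1.14 to 0.27. The bars treat mice of the same location as nearly independent.

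Within the core, 6 of the 8 alpha subunits had a difference below 0, with a median of -0.02. Psma1 was at -0.05, Psma2 at -0.06, Psma5 at -0.02, Psma6 at -0.03 and Psma7 at 0.00, while Psma3 (0.02) and Psma4 (0.06) were above 0. Leaving Psma8 aside, the SDs of the alpha genes over the 18 mice ran from 0.09 (Psma3) to 0.20 (Psma1 and Psma5), beside the member median of 0.19.

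The beta ring had 5 of 8 members below 0, with a median difference of -0.06. Its 3 proteolytic subunits were all on that side. Psmb5, the chymotrypsin-like subunit, was at 11.08 ± 0.33 in high and 11.17 ± 0.28 in low mice (mean ± SD, n = 9 each). Psmb6, the caspase-like subunit, was at 10.57 ± 0.16 and 10.68 ± 0.15. Psmb7, the trypsin-like subunit, ran from 11.62 through a median of 11.79 to 12.08 in high mice and from 11.73 through 11.90 to 12.14 in low mice. The groups overlapped, although 7 of 9 high mice lay below the low mean. The Psmb7 difference was -0.11 ± 0.08 (SE), with an adjusted p of 0.625 (limma). Of the non-proteolytic beta subunits, Psmb3 was at -0.11, Psmb4 at -0.02, Psmb1 at 0.02 and Psmb2 at 0.05. Psmb11 was at 0.07, from a weak probe set with a mean level of 4.98.

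Among the 6 base ATPases, which unfold the substrate, 5 were below 0 and the median difference was -0.05. Psmc4 had the lowest value at -0.18 ± 0.12 (SE), from means of 10.04 ± 0.22 and 10.22 ± 0.31. Psmc1 was at -0.07, Psmc2 at -0.06, Psmc5 at -0.02 and Psmc6 at -0.04. Psmc3, at 0.06 ± 0.07 (SE), was the only cap member above 0. The scaffolds Psmd1 and Psmd2 and the ubiquitin receptor Psmd4 were at -0.14, -0.09 and -0.09. Psmd1 in high mice ran from 10.10 through a median of 10.63 to 10.67, and all 9 high mice lay below the low mean, which also rounds to 10.67. Its low mice ran from 10.27 to 10.94, so the groups still overlapped, and the adjusted p was 0.648 (limma).

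All 8 lid members had a difference below 0, with a median of -0.10, and 3 of the 4 members with the smallest altitude p-values were among them. Psmd12, a scaffold subunit of the lid, ran from 9.79 through 9.91 to 10.12 in high mice and from 9.74 through 10.08 to 10.37 in low mice. The lowest single mouse was a low one, low B2, yet 8 of 9 high mice lay below the low mean. Its difference was -0.14 ± 0.08 (SE), with an unadjusted p of 0.0916 and an adjusted p of 0.535 (limma). Psmd7, the partner of the deubiquitinase Psmd14, ran from 8.54 through 8.74 to 9.28 in high mice and from 8.52 through 9.24 to 9.68 in low mice. Its difference was -0.24 ± 0.14 (SE), the lowest of the cap, with a 95% interval from -0.54 to 0.05 and an adjusted p of 0.55 (limma). For Psmd7, 2 high mice, A1 and C2, lay at 9.21 or above with 5 of the low mice, and the other 7 high mice lay lower.

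Psmd6, another lid scaffold, ran from 10.54 through 10.77 to 10.91 in high mice and from 10.59 through 10.82 to 11.18 in low mice. The high group lay low within a shared range, with 8 of 9 below the low mean, and the difference was -0.13 ± 0.08 (SE; adjusted p = 0.582, limma). Psmd14 was at -0.11 and Psmd13 at -0.09, and Psmd3, Psmd8 and Psmd11 were each at -0.02. The 3 chaperones that help assemble the base were at -0.08 (Psmd5), -0.22 (Psmd9) and -0.07 (Psmd10). Psmd9 had a 95% interval from -0.56 to 0.13.

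A second view used the 3 location means at each altitude, since mice of 1 location may share kin and surroundings. All 3 high means lay below all 3 low means for 4 members, Psmb7, Psmc4, Psmd6 and Psmd7, beside 7.04% of all genes. Of the 9096 genes above the median level, 877 had this order. The reverse held for 1 member, Psmb11, beside 7.55% of all genes. For Psmd7 the location means were 8.83, 8.91 and 8.86 at high and 9.22, 9.16 and 8.94 at low altitude. The gap between the nearest of these, high B and low C, was smaller than the SD of 0.27 between the mice of low C.

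The mean level over core or cap members was computed for each mouse. With Psma8 and Psmb11 left out, the core mean was 11.08 ± 0.15 in high and 11.12 ± 0.10 in low mice (SD, n = 9 each). Its location means were 11.08, 11.13 and 11.05 at high altitude and 11.16, 11.13 and 11.07 at low altitude for A, B and C. The cap mean was 9.98 ± 0.15 and 10.06 ± 0.17. By location it was 9.94, 10.05 and 9.94 at high altitude and 10.11, 10.10 and 9.98 at low altitude. Both altitude differences, -0.03 for the core and -0.09 for the cap, were smaller than the SD between mice of 1 altitude.

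**Figure D2:**
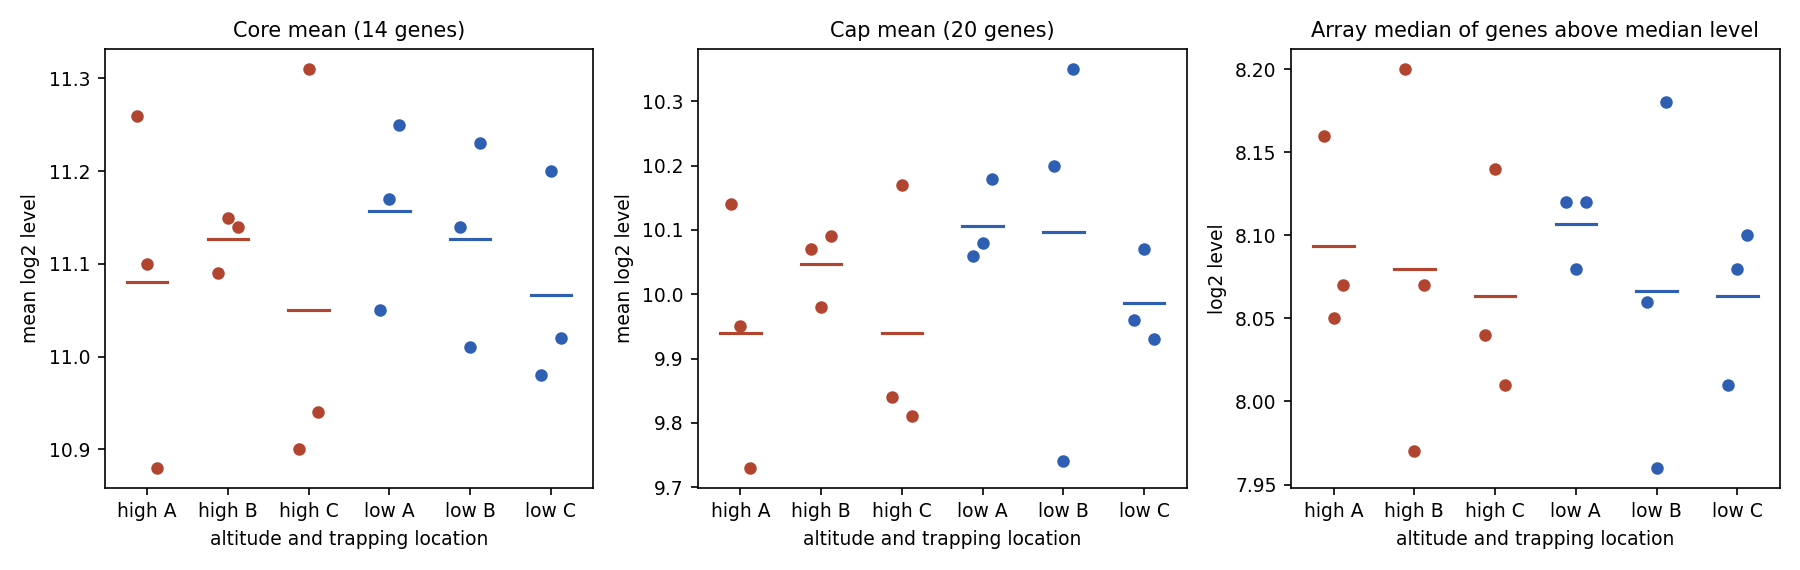
Mean log2 level of 14 core genes (left, without Psma8 and Psmb11) and 20 cap genes (middle), and the median log2 level of all genes above the median level on the same array (right), by altitude and trapping location. Each point is 1 mouse and each line the mean of 3; the cap mean of low location B alone runs from 9.74 to 10.35.

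The widest spread of the cap mean lay inside 1 trapping location. Low B2 had a cap mean of 9.74 and low B3 one of 10.35, and the lowest of all was high A4 at 9.73. The median log2 level of all genes above the median level moved with these arrays in low location B, being 7.96 on low B2, the lowest of the 18, and 8.18 on low B3. On high A4 it was 8.07, in the middle of the range. The part of this array-wide level in the cap mean was not tested, and the correlations below are given with arrays centred on it as well.

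Locations within an altitude were compared next. Among the high locations 0 members passed (limma's moderated F test, adjusted p under 0.05), beside 0.302% of all genes. Unadjusted, 1 member was under 0.05, beside 8.91% of all genes. That member was Psma8, whose product replaces Psma7 in the proteasome of male germ cells. High location A had 4.52, 4.84 and 5.62 in its 3 mice, high B had 6.63, 6.89 and 6.11, and high C had 4.24, 4.65 and 5.25. All 3 mice of high location B lay above the other 6 high mice. The location means were 4.99, 6.54 and 4.71, a range of 1.83 with an unadjusted p of 4.21e-04 and an adjusted p of 0.0838 (limma).

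Among the low locations the 3 groups of mice overlapped in Psma8. Low A had 5.83, 5.77 and 5.67, low B had 7.21, 5.24 and 6.24, and low C had 5.70, 5.35 and 5.63. Low B held both the highest and the lowest low mouse, and the F test gave an adjusted p of 0.91. The pass mark among the high locations was reached without low B1 (adjusted p = 0.0242), without low B2 (adjusted p = 0.0218) and without low location B (adjusted p = 0.015), all by limma in a fit where all locations share 1 estimate of spread.

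High location B, where Psma8 was highest among the high mice, also had the highest mean of an RNA quality measure. The log2 excess of the 3′ over the 5′ probe set of Actb, which grows as RNA degrades, averaged 1.70 in high location B against 1.19 in high A and 1.30 in high C. The same excess for Gapdh was 0.33 against 0.07 and 0.12. In low A, B and C the Actb excess was 1.18, 1.21 and 1.26, and Psma8 means were 5.76, 6.23 and 5.56. With the Actb measure as a covariate the adjusted p for Psma8 among the high locations was 0.58 (limma, unadjusted p = 0.0159). A higher Actb excess and the location coincide in high B, so this fit cannot tell them apart, and a cause was not tested. The altitude difference of Psma8, -0.43 over all mice, depended on which were kept. It was -0.79 under that covariate and -0.99 without high location B (adjusted p = 0.25 and 0.0835, limma), but -0.22 without high location A and -0.08 without high location C. Without low location B it was -0.24, without the single mouse low B1 -0.26, and without high C1 -0.28. The mean level of Psma8 lay below the median of all genes, with mice from 4.24 to 7.21, and RMA compresses weak signals towards a floor.

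**Figure D3:**
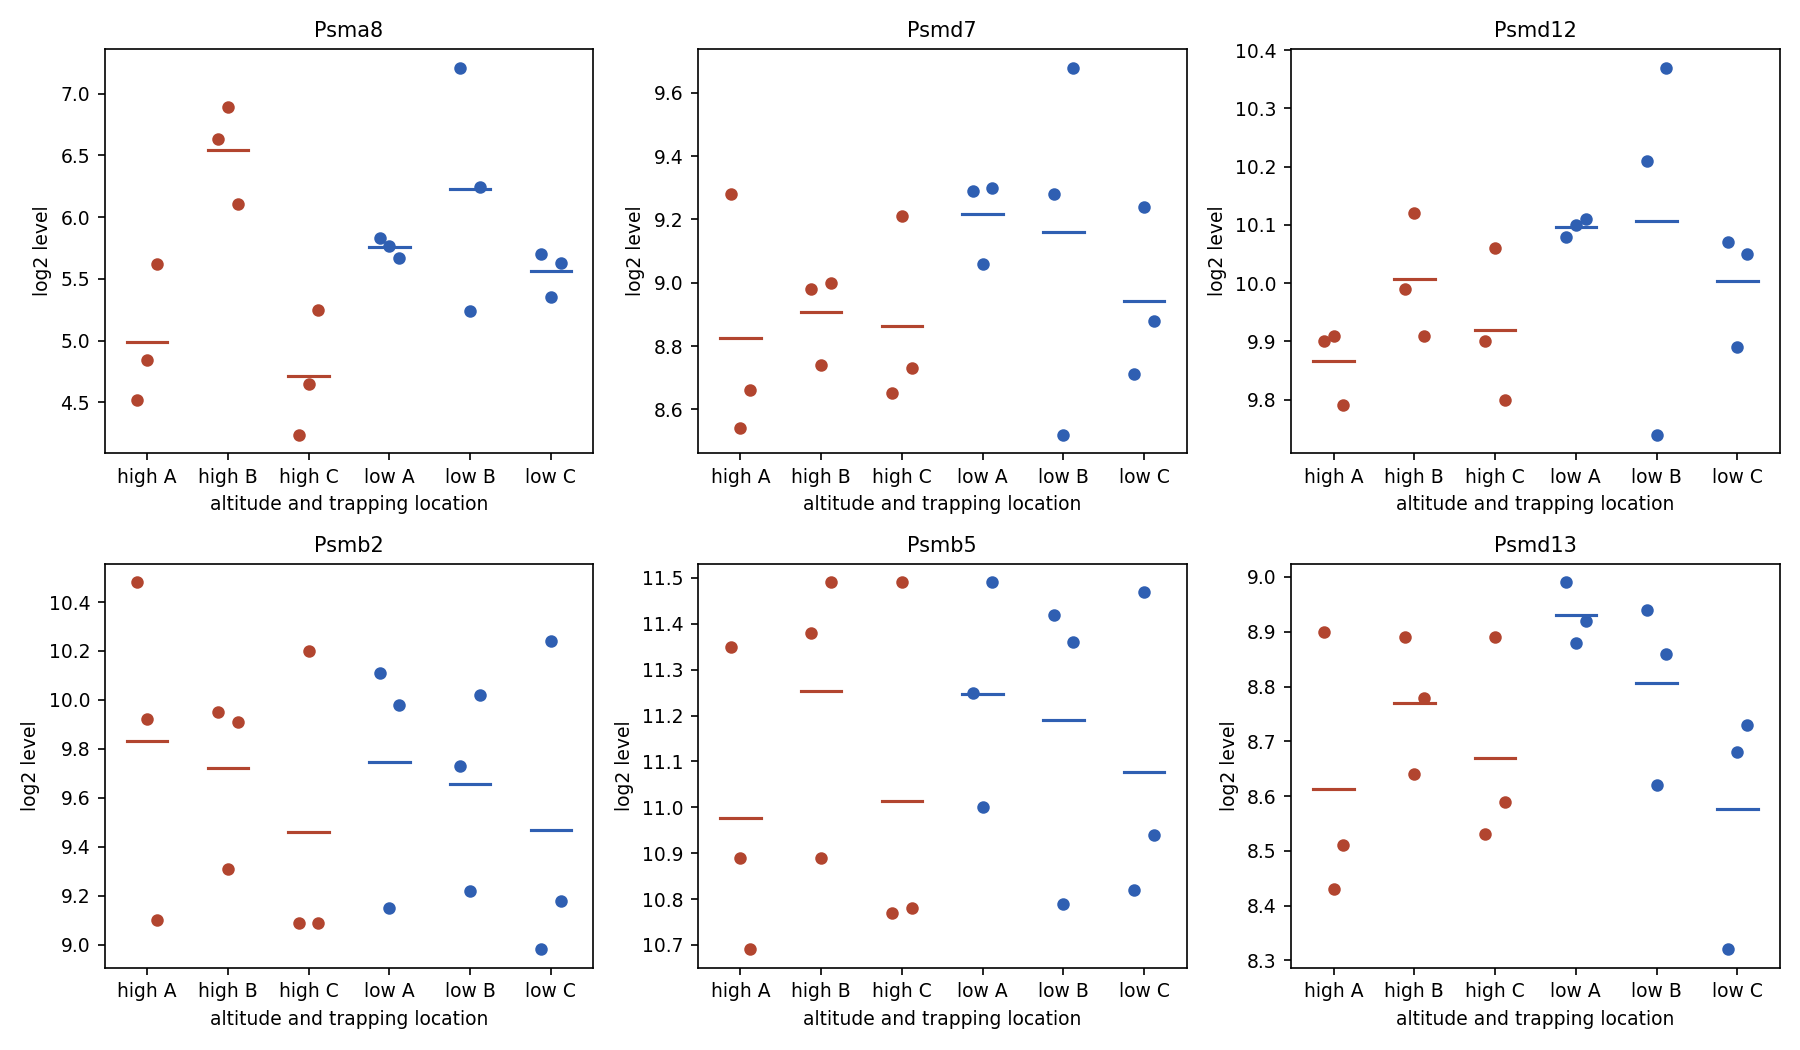
Log2 level of Psma8, Psmd7, Psmd12, Psmb2, Psmb5 and Psmd13 in each mouse (points; lines are means of 3) by altitude and trapping location, with a separate vertical scale in each panel. Psma8 is high in all 3 mice of high location B, while Psmb2 and Psmb5 split the mice of every location into higher and lower ones.

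The other 3 members with the smallest p among the high locations were Psmd11, Psmb3 and Psmd10. Psmd11, a lid scaffold, had 12.14, 12.10 and 11.77 in high A, 12.32, 12.32 and 12.29 in high B, and 12.07, 12.21 and 12.06 in high C. The mice of high B lay above the other 6, but the adjusted p was 0.734 (limma). Psmb3 had means of 10.97 ± 0.18, 11.31 ± 0.16 and 11.09 ± 0.32 (SD, n = 3 each), with high C2 at 11.44 the highest mouse. Psmd10, also known as the oncoprotein gankyrin, had means of 7.81 ± 0.36, 7.42 ± 0.11 and 7.48 ± 0.27, with the higher values in 2 mice of high A (8.07 and 7.96). These ranges of location means, 0.31, 0.34 and 0.39, were matched or exceeded by the spread inside at least 1 of the locations.

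Among the low locations 0 members passed, beside 0.0715% of all genes, and 0 had an unadjusted p under 0.05, beside 6.68%. The 4 with the smallest p, Psmd13, Psmb4, Psmc3 and Psma8, all had their lowest mean in low location C, and the Psma8 values are given above. Psmd13, a lid subunit, had 8.99, 8.88 and 8.92 in low A, 8.94, 8.62 and 8.86 in low B, and 8.32, 8.68 and 8.73 in low C. All 3 mice of low A lay above all 3 of low C, with an adjusted p of 0.795 (limma). Psmb4 had means of 11.87 ± 0.13, 11.74 ± 0.06 and 11.55 ± 0.19 in A, B and C, and Psmc3 had 10.53 ± 0.03, 10.44 ± 0.15 and 10.29 ± 0.04 (SD, n = 3 each). Psmc3 was tight in low A and low C, which did not overlap, but low B spanned both. Whether location differences of a member differed between the altitudes was not tested.

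Many of the members moved together from mouse to mouse. Over the 18 mice the median pairwise correlation (Pearson's r, given as a description with no p, since all genes share the same arrays) was 0.574 among the 20 cap genes. It was 0.335 among the 14 core genes above the median level, and 0.403 between core and cap genes. All genes above the median level had a median r of 0.026 with each other. After removing each location's mean the values were 0.639, 0.409 and 0.462, so the shared movement was also present within locations. After centring every array on the genes above the median level, they were 0.435, 0.331 and 0.331. Without high A4 and low B2, the mice farthest from the median cap mean, they were 0.474, 0.30 and 0.344 over 16 mice.

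Not all members took part. Of 34 members compared with the mean of the remaining ones, 26 had an r above 0.5. The scaffold Psmd2 (0.963) and the ATPase Psmc1 (0.938) were closest to it. Of the 4 members with an r below 0.3, all were alpha subunits: Psma3 (0.085), Psma4 (0.060), Psma6 (0.107) and Psma7 (-0.065). Psma7 was at 11.10 in high B2, 11.08 in low A2 and 10.91 in low B2, where Psmd2 was at 10.81, 10.91 and 10.35 and the last is its lowest value. Psma3 spanned only 0.35 over all 18 mice and Psma4 0.65, while the ATPase Psmc3, with a span of 0.39, had an r of 0.698.

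**Figure D4:**
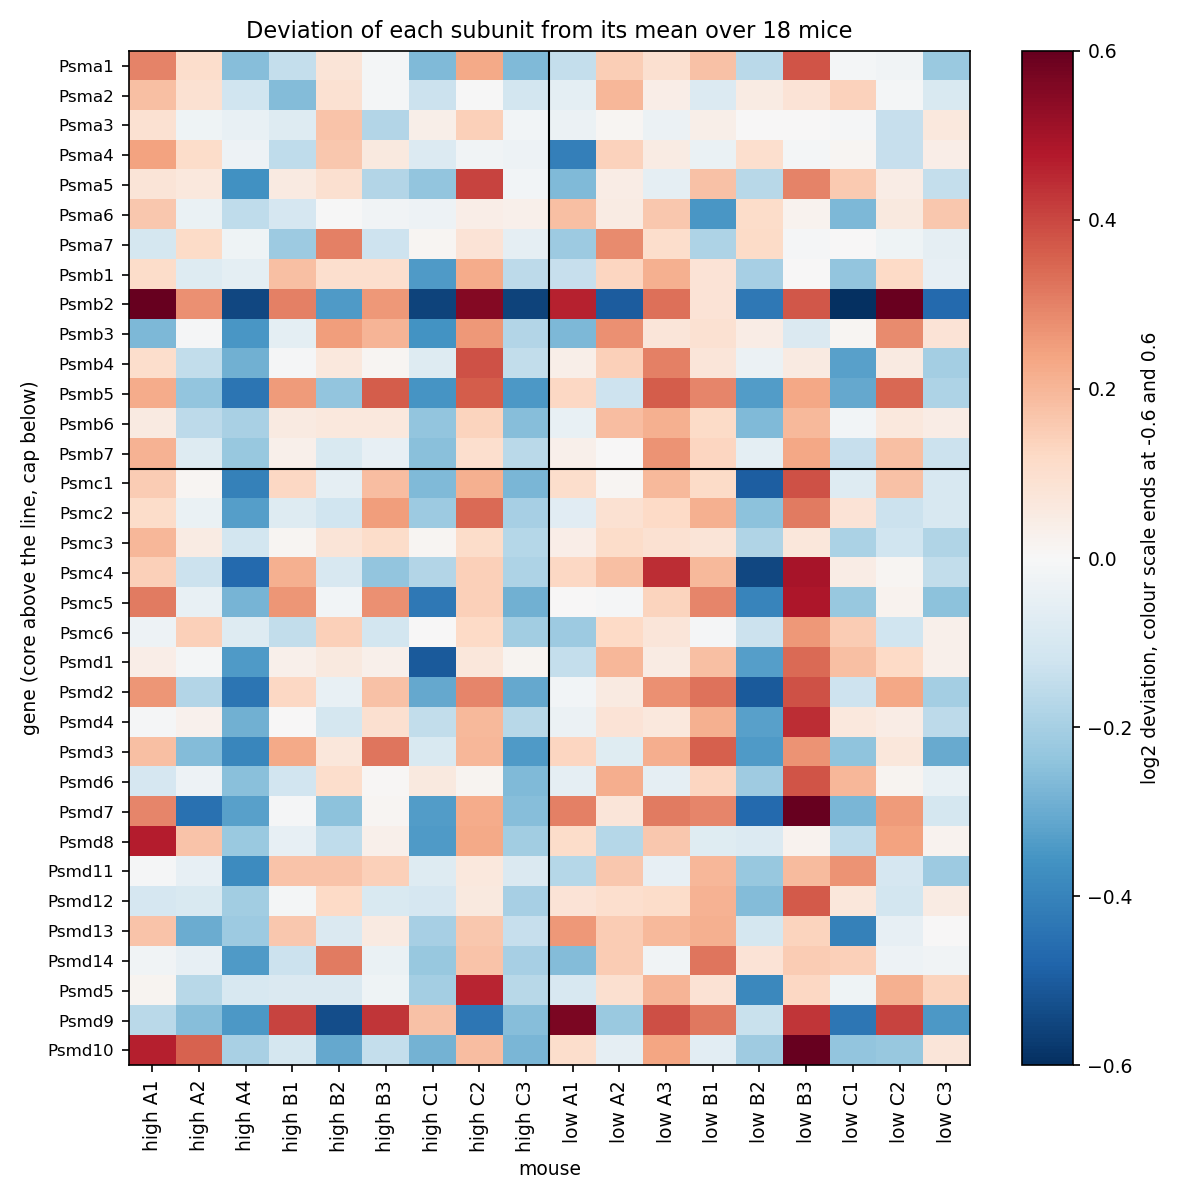
Deviation of each of 34 subunit genes (rows; core above the horizontal line, cap below) from its own mean over 18 mice (columns; high altitude left of the vertical line) in log2 units, red above and blue below the mean. High A4 and low B2 are blue and low B3 and high C2 red across most cap rows, while Psma3, Psma4, Psma6 and Psma7 do not follow these columns.

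Psmb2, a non-proteolytic beta subunit, varied most among the well-measured members, with an SD of 0.50 and levels from 8.98 to 10.48. Its levels fell into a lower stretch of 8 mice that ended at 9.31 and an upper stretch of 10 mice that began at 9.73. The gap of 0.42 was 28.3% of the range, and 0.792% of the genes above the median level had so large a share with at least 5 mice on each side. Every location had mice on both sides, and the upper stretch held 5 high and 5 low mice. Psmb5, the chymotrypsin-like subunit, had a gap of 0.26 with the upper stretch of 9 mice beginning at 11.25, which was 32.6% of its range and a share reached by 0.341% of those genes. The same 17 of 18 mice fell on the same side for both genes, the exception being high A2, with Psmb2 at 9.92 and Psmb5 at 10.89. Shares of like size occurred in other members that divided the mice differently: Psmc3 (29.7%, reached by 0.55% of those genes) and Psmd9 (27.8%, reached by 0.912%) each placed 14 of 18 mice on the same side as Psmb2. The division itself was not particular to Psmb2 and Psmb5. Psmc1, with a gap of only 9.76% of its range, had the same 9 mice in its upper stretch as Psmb5. Psmb2 and Psmb5 also followed the mean of the other members, with an r of 0.702 and 0.848. Psmb2 and Psmb5 were picked out for their gaps after their values were seen, and the altitude differences were 0.05 ± 0.22 for Psmb2 and -0.09 ± 0.14 for Psmb5 (SE). The labels gave no hour of capture, feeding state or genotype for the mice, so a relation of these stretches to any of them was not tested. The median log2 level of all genes above the median level on the array ran from 8.06 (low B1) to 8.20 (high B1) in the 9 upper mice of Psmb5. In its 9 lower mice that median ran from 7.96 (low B2) to 8.10 (low C3). A relation of the stretches to this array-wide level or to RNA quality was not tested either.

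Members with more than 1 probe set gave a check on the measurement. Beside the 36 probe sets used, 38 others were assigned to a single member, and 21 of them, from 14 genes, lay above the median probe set level of 5.69. Their altitude differences ran from -0.29 to 0.17, 17 of 21 were below 0, and 16 of 21 had the sign of the gene's own value above. Of all 38, 0 passed the altitude test over all single-gene probe sets, of which 0.338% passed, and 2 had an unadjusted p under 0.05 (limma), beside 10.6%. Among the high locations 0 passed, beside 0.226%, and 4 had an unadjusted p under 0.05, beside 8.93%. Among the low locations 0 passed, beside 0.0715%, and 4 were under 0.05 unadjusted, beside 6.48%. The smallest of these was for a dim probe set of Psma5 (mean level 4.22) among the high locations, with an unadjusted p of 3.30e-04 and an adjusted p of 0.0846 (limma), while the 2 brighter Psma5 probe sets had 0.774 and 0.862 unadjusted. The second probe set of Psmd9 was at -0.29, against -0.22 for the first, and that of Psmd6 at -0.19 against -0.13. Psmd4 showed both signs, with -0.09 and -0.06 for its brighter probe sets and 0.17 for the third. For Psmd11, 3 other bright probe sets were at -0.11, -0.08 and -0.10, against -0.02 for the brightest.

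Genes around the proteasome were examined from 7 lists, chosen with earlier results of these data known. Of the genes on these lists 0 passed the altitude test in either direction, beside 0.363% of all genes. Of the activators and inhibitor outside the immune type (Psme3, Psme4 and Psmf1), 2 of 3 were below 0, and Psme3, part of a nuclear activator ring, was at -0.12 ± 0.09 (SE). Of 5 chaperones that assemble the core, 3 were above 0, and Psmg4 was at 0.06 ± 0.08 (SE). Of 9 cap-associated proteins, which include the shuttle factors that carry ubiquitin-tagged substrates, 6 were below 0. The shuttle factor Ubqln2 had the smallest p of these at -0.27 ± 0.10 (SE; adjusted p = 0.253, limma). Of 11 genes of the Nfe2l1 pathway 6 were above 0, and the cytosolic redox protein Txn1, with the smallest p, was at 0.17 ± 0.07 (SE; adjusted p = 0.333, limma). Of 6 genes for ubiquitin activation and conjugation 5 were below 0, with the conjugating enzyme Ube2k at -0.17 ± 0.09 (SE; adjusted p = 0.487, limma). Of 9 genes of the p97 segregase, which extracts ubiquitin-tagged proteins ahead of the proteasome, 6 were below 0, and its adaptor Faf2 was at 0.10 ± 0.08 (SE). Vcp, which encodes p97 itself, was counted both in the Nfe2l1 pathway and in the segregase. The median over each list of log2 differences ran from -0.08 to 0.06, with the exception of the immune-type list below.

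The immune-type subunits Psmb8, Psmb9 and Psmb10 had altitude estimates above 0, with none past the test. Interferon is known to induce Psmb8, Psmb9 and Psmb10, which take the places of Psmb5, Psmb6 and Psmb7 in newly built cores. All 4 measured genes of this list were above 0, at 0.83 ± 0.29 for Psmb8, 1.20 ± 0.33 for Psmb9, 0.76 ± 0.21 for Psmb10 and 0.15 ± 0.14 for the activator Psme1 (SE), and 0 passed on their own. The smallest adjusted p was 0.11, for Psmb10 (limma). Setting each replacement subunit against its constitutive partner within the same mouse gave 3 log2 ratios. They were formed after the higher levels of these 3 genes had been seen, so they are given as a description, with no test. The level of such a ratio has no meaning between probe sets, but its difference between mice does.

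The ratio of Psmb9 to Psmb6 ran from -2.27 through a median of -0.88 to 0.15 in high mice and from -3.32 through -2.62 to -0.48 in low mice. All 9 high mice lay above the low mean, and the groups overlapped through low B2 alone at the upper end of the low mice. The difference was 1.31, a 2.48-fold higher ratio at high altitude. For Psmb10 to Psmb7 the means were -2.15 ± 0.43 and -3.03 ± 0.46 (SD, n = 9 each), a 1.84-fold difference with all 9 high mice above the low mean. For Psmb8 to Psmb5 they were -1.33 ± 0.67 and -2.25 ± 0.70, a 1.89-fold difference with 7 of 9 high mice above the low mean. That difference, 0.92 over all mice, was 0.62 without high location A and 0.62 without low location C.

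For each ratio all 3 high location means exceeded all 3 low ones, at -0.42, -1.62 and -1.27 against -2.59, -1.75 and -2.90 for Psmb9 to Psmb6. For Psmb8 to Psmb5 the nearest of these means were almost equal, high B at -1.68 and low B at -1.69. In these ratios the numerator carried the difference, since Psmb5, Psmb6 and Psmb7 had differences of -0.09, -0.11 and -0.11. Immune cell markers were examined beside these ratios. Of the macrophage, T and NK, and neutrophil markers 0 passed between altitudes, beside 0.363% of all genes. Of 11 Kupffer cell and macrophage markers 11 were above 0, with a list mean of 9.13 to 10.45 in high and 8.90 to 9.92 in low mice. Of 12 T and NK cell markers 10 were above 0, with a list mean of 5.72 to 6.63 in high and 5.49 to 6.22 in low mice, and 3 of these markers lay above the median level of all genes. Between high locations 2 of these 12 passed, beside 0.302% of all genes. They were Ccl5 (adjusted p = 0.00634) and Nkg7 (adjusted p = 0.037, both by limma's moderated F test). Of 6 B and plasma cell markers 4 were above 0. Jchain and Ighm, which encode antibody chains, passed the altitude test at 2.34 and 2.05, beside 0.363% of all genes. Mzb1 (0.17), Cd79a (0.06), Cd79b (-0.12) and Ms4a1 (-0.15) did not pass. In a fit on 1 mean per location no gene passed between altitudes. Of 6 neutrophil markers 3 were above 0, with a median of -0.01. The part of immune cells in these ratios was not tested, and in bulk liver more cells of a type and more RNA per cell cannot be told apart.

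**Figure D5:**
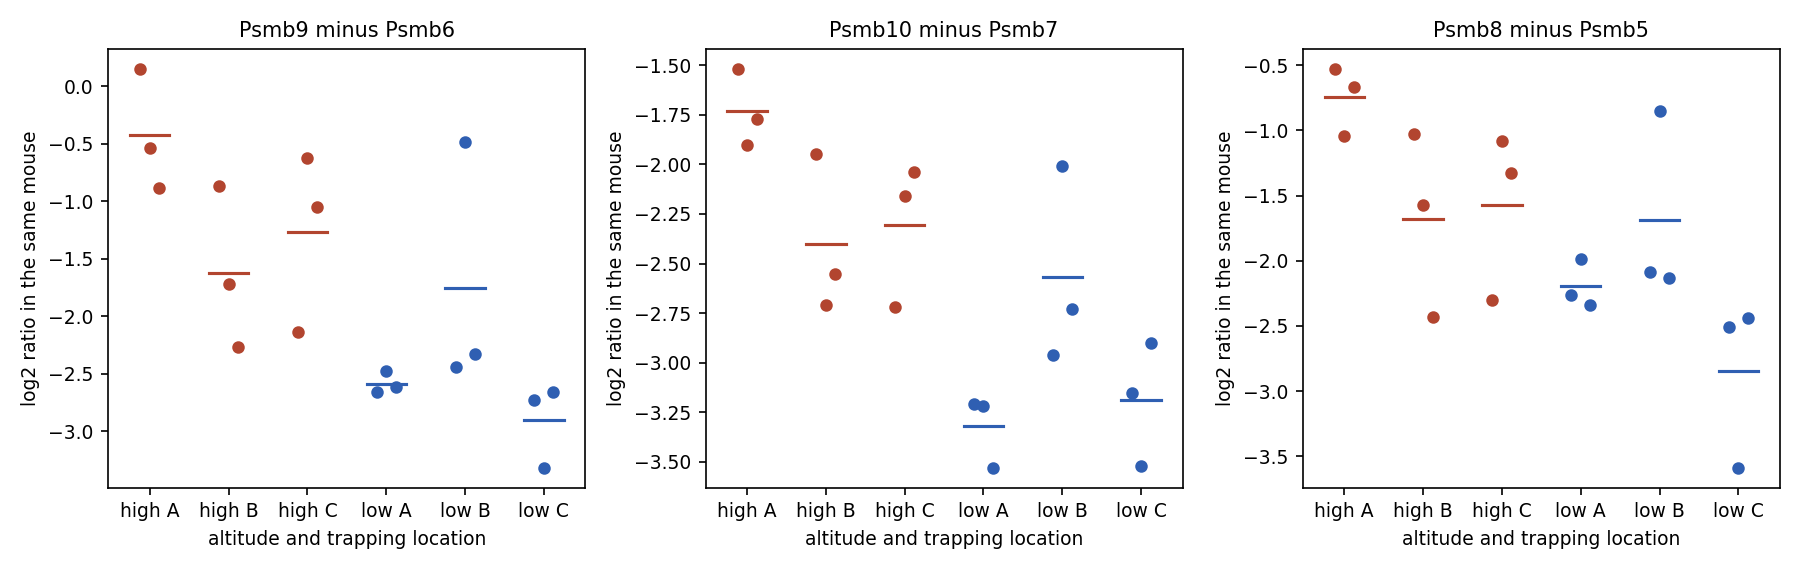
Log2 ratio of each immune-type subunit to the constitutive subunit it replaces in the same mouse (points; lines are means of 3), by altitude and trapping location. High location means lie above low ones in all 3 panels, and low B2 stands above the other low mice.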

How the data were processed

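Each of the 18 liver RNAs was hybridised to 1 Affymetrix mouse array, per the labels. The authors deposited log2 values for 45101 probe sets, made with RMA in the affy package per the submitters' processing notes. For these tools, no version is given in the sources used here. RMA compresses weak signals towards a floor, and the number of arrays limits the precision.

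Names came from the platform annotation: 34945 probe sets had 1 symbol and 932 several, and 34741 of the former matched the RefSeq gene table. Where a gene had several single-gene probe sets, the one with the highest mean was used. Altitudes were compared with limma 3.58.1 in R 4.3.3, using two-sided tests, location as a random block (consensus correlation 0.00586), a mean-variance trend, and Benjamini-Hochberg adjustment over 18193 genes at 0.05. Locations were compared by a moderated F test in a fit of 6 location means. The fits were run on simulated data in which genes varied independently, so that run says nothing about members that move together. Every member is named. Values by mouse or location are given for the 4 members with the smallest p in each comparison, since 0 passed, and for members singled out after their values were seen. Of the surrounding lists, the gene with the smallest altitude p is named, with some others for their role. The members and lists were chosen with earlier results of these data known, and the ratios and the gaps between mice were added after the values were seen. No scan date was at hand to define batches.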

Additional observations from a re-analysis of the deposited data

Results flagged for a closer look

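A single mouse stood far from the others of its altitude in 4 of the 82 groups of 9 mice examined, where chance gives about 1 in 20. Psma8 in low B1 was at 7.21, with the next low mouse at 6.24. Psmd5, the base chaperone, was at 8.92 in high C2, with the next high mouse at 8.48. Psmd11 was at 11.77 in high A4, below the next at 12.06, and high A4 was also the mouse with the lowest cap mean, 9.73. The log2 ratio of Psmb9 to Psmb6 was -0.48 in low B2, with the next low mouse at -2.33. Without low B2 the difference between altitudes in this ratio was 1.55 rather than 1.31.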

How the results depend on the processing

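Between altitudes 0 members passed in all 38 alternatives. These covered normalization, probe set choice, moderation, array weights, an RNA quality covariate, thresholds, leaving out mice and locations, and a fit on 1 mean per location. Over all genes these alternatives gave 0 to 180 calls. The 0 came from the fit on 1 mean per location, where no gene passed, Jchain and Ighm included. With no gene called there, the 0 members of that fit say nothing about the members. Among low locations 0 members passed in 36 of 36, where 1 to 50 of all genes were called. Among high locations 0 passed in 31 of 36, and 1, Psma8, passed with array weights (adjusted p = 0.0484, limma), at an adjusted p under 0.1, and without low location B; leaving out 1 mouse gave 0 to 1, the 1 being without low B1 or low B2. The median difference ran from -0.07 to 0.01 in the core, above 0 in 1 of 36 alternatives (the Actb covariate), and from -0.13 to -0.04 in the cap. Array weights, or leaving out low B2, brought Psmd7, Psmd12 and Psmc4 under an unadjusted p of 0.05, with adjusted p-values (limma) from 0.268 to 0.322. The mouse numbers do not pair animals; with them as a replicate block 28 genes and 0 members were called between altitudes. Over 26 alternatives the log2 ratio differences ran from 0.969 to 1.64 for Psmb9 to Psmb6, from 0.67 to 1.11 for Psmb10 to Psmb7 and from 0.569 to 1.19 for Psmb8 to Psmb5.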
